A study of Homo sapiens with 24 samples.

Results

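The SLC30 family (zinc transporters ZnT1 to ZnT10) was followed across 8 groups of lymphoma cells as 10 gene symbols out of 25161 in a table of 25575 rows. Each member, SLC30A1 to SLC30A10, was found by its symbol, and the row with the highest mean stood for a symbol with several rows. SLC30A4, and with it the family, was chosen by its measured changes against DMSO on these arrays, so its levels under treatment are given as a description without a test, whereas the other 9 members were tested.

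Most SLC30 proteins carry zinc out of the cytosol, either across the plasma membrane or into the Golgi apparatus, secretory vesicles and other compartments. SLC39 (ZIP) proteins work in the opposite direction and bring zinc into the cytosol, and metallothioneins are small cysteine-rich proteins that bind it there. The zinc-sensing transcription factor MTF1 activates metallothionein genes and SLC30A1 when free zinc is high. B cells depend on zinc for signalling enzymes and for many transcription factors.

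The arrays (Clariom D, a human whole-transcript microarray) measured total RNA of SU-DHL-4, a line of diffuse large B-cell lymphoma, and of the Burkitt lymphoma line DG-75, both long established in culture. Both lines were kept for 72 h in solvent (DMSO), in 1 µM Entospletinib (Ento, an inhibitor of the B-cell receptor kinase SYK), in 0.01 µM AZD5153 (AZD, a bivalent inhibitor of the BET chromatin readers) or in both compounds together (Ento+AZD). Every group had 3 arrays, numbered 1 to 3, which gave 24 arrays in all. Values are log2 levels, so that a difference of 1 is a doubling, and levels of different genes cannot be set against each other because their probes differ. A gene was called when the adjusted p of limma was under 0.05 and the log2 change was beyond 1 in either direction. Each line stands for its type as a single cell line, and each array holds RNA of a whole culture, in which fewer cells of a type and less RNA per cell cannot be told apart.

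Array medians lay between 4.89 and 5.14. AZD replicate 1 of SU-DHL-4 had the lowest median and the lowest upper quartile (6.78) of the 24 arrays. B-cell markers had mean levels of 7.39 to 12.2 in SU-DHL-4 and 6.74 to 11.6 in DG-75. T-cell markers lay at 1.71 to 3.95 and 1.51 to 3.97, and myeloid markers at 2.48 to 5.59 and 2.68 to 5.64. These are levels of different probes and were not tested against each other.

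SLC30A4 encodes ZnT4, a transporter of vesicles and the trans-Golgi network known for the zinc-poor milk of mice that lack it. The gene lies on the minus strand of chromosome 15, at 45479606 to 45522755 in GRCh38.p14. In SU-DHL-4 its level was 5.90, 5.63 and 5.16 under DMSO (mean 5.56 ± 0.38, SD, n = 3). Under Ento it was 7.09, 6.75 and 6.81 (6.89 ± 0.18, SD, n = 3). Under AZD it was 4.77, 5.94 and 5.05 (5.25 ± 0.61, SD, n = 3), and under Ento+AZD 6.95, 7.10 and 6.44 (6.83 ± 0.35, SD, n = 3). All arrays with Ento, alone or combined, lay above all arrays without it, and the AZD arrays overlapped the DMSO arrays.

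In DG-75 the SLC30A4 level was 5.89, 5.48 and 6.16 under DMSO (5.84 ± 0.35, SD, n = 3). It was 6.91, 6.71 and 6.95 under Ento (6.86 ± 0.13, SD, n = 3). It was 6.91, 6.47 and 7.05 under AZD (6.81 ± 0.31, SD, n = 3), and 7.53, 6.91 and 8.04 under Ento+AZD (7.49 ± 0.57, SD, n = 3). All 3 treatments lay above DMSO with no overlap, and the combination overlapped both single agents.

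**Figure D1:**
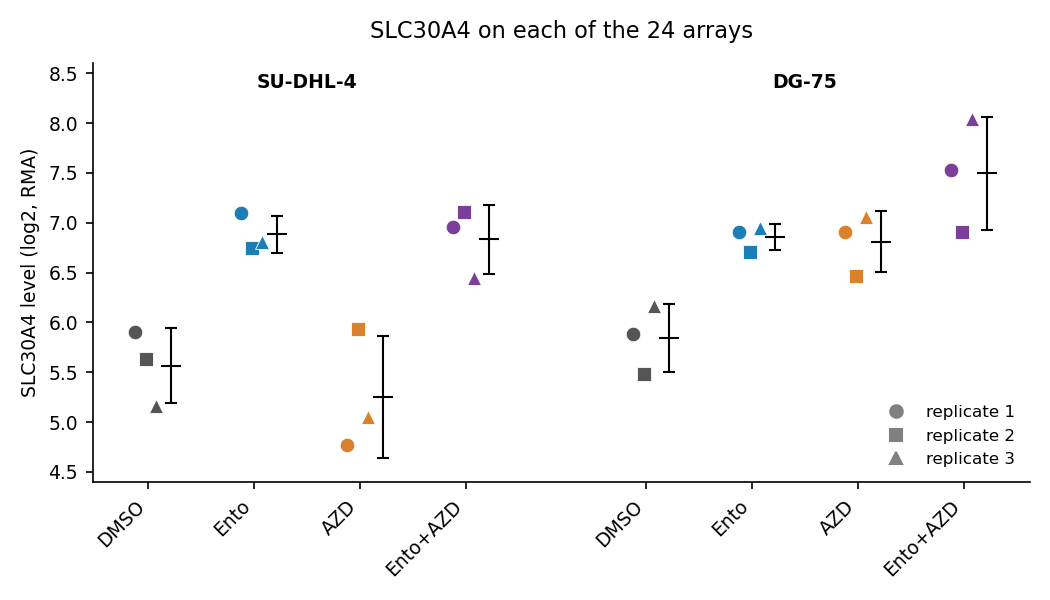
SLC30A4 level (log2) on each array by treatment, SU-DHL-4 on the left and DG-75 on the right. Marker shapes give the replicate number, and the bar beside each group gives the mean ± SD of 3 arrays. In SU-DHL-4 the AZD arrays (4.77 to 5.94) overlap DMSO (5.16 to 5.90), whereas in DG-75 they (6.47 to 7.05) lie above DMSO (5.48 to 6.16).

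The fitted SLC30A4 change against DMSO in SU-DHL-4 was 1.32 with Ento (2.50-fold), -0.31 with AZD (0.806-fold) and 1.27 with Ento+AZD (2.41-fold), each with an SE of 0.247 on the log2 scale. In DG-75 it was 1.01 with Ento (2.02-fold), 0.967 with AZD (1.95-fold) and 1.65 with Ento+AZD (3.14-fold), each with an SE of 0.160. Among all 25575 rows, ordered from the highest change down, SLC30A4 stood at place 14 with Ento, 21267 with AZD and 15 with Ento+AZD in SU-DHL-4. In DG-75 its places were 9 with Ento, 18 with AZD and 6 with Ento+AZD. For the comparisons without overlap, the share of all rows that lay wholly above DMSO was 4.05% with Ento and 4.84% with Ento+AZD in SU-DHL-4, and 3.09%, 4.50% and 4.79% with Ento, AZD and Ento+AZD in DG-75. These shares are the background only, since these comparisons chose the gene.

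The same arrays were set side by side for the combination and its parts. In SU-DHL-4 the level under Ento+AZD differed from Ento by -0.051 (-0.29 to 0.106 with arrays left out) and from AZD by 1.58 (2.99-fold), a comparison in which 4.15% of all rows lay wholly above AZD. In DG-75 Ento+AZD exceeded Ento by 0.638 and AZD by 0.684, with overlapping groups. With arrays left out, the first of these ran from 0.411 (without replicate number 3) to 0.859 (without replicate number 2), and the second from 0.519 to 0.836. The change under the combination minus the changes under Ento and AZD added together was 0.261 (SE 0.349) in SU-DHL-4. It ran from -0.10 to 0.569 with arrays left out, and was below 0 without AZD replicate 1 (-0.091) and without replicate number 1 (-0.10). In DG-75 it was -0.33 (SE 0.227) and ran from -0.59 to -0.097.

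Between the lines, the SLC30A4 change in SU-DHL-4 minus that in DG-75 came to 0.307 (Ento), -1.28 (AZD) and -0.38 (Ento+AZD), each with an SE of 0.313. With arrays left out, the Ento value ran from 0.0286 (without replicate number 3) to 0.545 (without Ento replicate 2 of SU-DHL-4). The Ento+AZD value ran from -0.59 (without replicate number 2) to -0.19 (without DMSO replicate 1 of SU-DHL-4). The AZD estimate rested partly on replicate 1, without which the SU-DHL-4 change under AZD was 0.0970 and the difference between the lines -0.84. With the AZD array of that number alone left out, the SU-DHL-4 change was 0.039. Under DMSO, the reference of the changes that chose the gene, the SLC30A4 mean of SU-DHL-4 minus that of DG-75 was -0.28 (SE 0.287), and the arrays overlapped.

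Ordered by mean, the SLC30A4 groups ran from AZD and DMSO in SU-DHL-4 and DMSO in DG-75 to AZD in DG-75, Ento+AZD in SU-DHL-4, Ento in DG-75, Ento in SU-DHL-4 and Ento+AZD in DG-75. Of the 7 pairs of neighbours in this order, 6 overlapped in their arrays. The break lay between DMSO in DG-75, whose highest array was 6.16, and AZD in DG-75, whose lowest was 6.47. The spread of SLC30A4 means over the 4 treatments was 1.63 for SU-DHL-4, where the median spread over all rows was 0.311, and 1.65 for DG-75, where it was 0.293.

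Genes beside and across SLC30A4 were measured on the same arrays. The RefSeq gene table names AFG2B, COXFA4L3 and the antisense gene SLC30A4-AS1 on one side and BLOC1S6, SQOR and SEMA6D on the other. SLC30A4-AS1 shares bases with SLC30A4 and was not listed in the table, and whether the SLC30A4 probes read it was not tested. The 5 measured neighbours changed by -0.68 to 0.472 over 30 comparisons with DMSO, and 0 were called, where 0.00391% to 1.19% of all rows were, depending on the comparison (smallest limma adjusted p = 0.0752). An unadjusted p under 0.05 was reached in 7 of the 30, against 2.81% to 16.0% of all rows. The pseudogene HMGN2P46, which overlaps the start of SLC30A4, had changes of -0.10 to 0.411, none of them called.

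The 250 bases before the gene start are shown for SLC30A4, for SLC30A1 and for the metallothionein MT2A, both of which MTF1 is known to activate, so that their metal response elements can be compared. Sequences are from RefSeq (GRCh38.p14), on the strand of the gene. Capitals mark matches, on either strand, to TGCACNC or TGCGCNC, the core letters of the element to which MTF1 binds.
SLC30A4 (chr15:45522756-45523005, minus strand): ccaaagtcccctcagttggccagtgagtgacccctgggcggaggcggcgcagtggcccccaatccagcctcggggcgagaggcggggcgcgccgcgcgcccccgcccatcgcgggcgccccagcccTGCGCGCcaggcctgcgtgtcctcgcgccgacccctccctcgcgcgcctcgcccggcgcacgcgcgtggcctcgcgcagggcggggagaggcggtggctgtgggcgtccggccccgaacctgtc
SLC30A1 (chr1:211579162-211579411, minus strand): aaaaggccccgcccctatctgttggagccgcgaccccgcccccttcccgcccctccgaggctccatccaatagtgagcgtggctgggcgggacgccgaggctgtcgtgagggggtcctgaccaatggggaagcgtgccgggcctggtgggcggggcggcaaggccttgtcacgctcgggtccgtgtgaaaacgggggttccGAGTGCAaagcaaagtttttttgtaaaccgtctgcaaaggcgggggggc
MT2A (chr16:56608334-56608583, plus strand): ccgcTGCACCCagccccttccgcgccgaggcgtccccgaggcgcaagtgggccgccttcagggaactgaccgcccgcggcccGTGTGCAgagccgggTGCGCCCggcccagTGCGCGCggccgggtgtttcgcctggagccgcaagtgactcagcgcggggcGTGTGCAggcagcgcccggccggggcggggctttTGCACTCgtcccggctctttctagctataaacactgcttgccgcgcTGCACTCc
MT2A held 7 matches, SLC30A4 held 1 to TGCGCNC and SLC30A1 held 1 to TGCACNC. Over all 35116 promoters 24.8% held a match, against 6 of 11 SLC30 windows from 9 genes and 5 of 5 metallothionein windows. Matches are letters in a window and were not tested as binding sites.

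The other 9 members were tested in the 6 comparisons with DMSO, and 0 of 9 were called in each. The share of all rows called was 0.0508% with Ento, 0.180% with AZD and 1.19% with Ento+AZD in SU-DHL-4, and 0.00391%, 0.180% and 0.833% in DG-75, so that 0 of 9 stands near the background. Their 54 changes lay between -0.62 and 0.357, with a smallest limma adjusted p of 0.231, and 1 of the 54 (Ento+AZD in SU-DHL-4) had an unadjusted p under 0.05, where 8.59%, 11.5% and 14.0% of all rows did in SU-DHL-4 and 2.81%, 13.8% and 16.0% in DG-75. Of the 95% intervals, 53 of 54 lay within -1 and 1, and their bounds reached from -1.12 to 0.746.

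**Figure D2:**
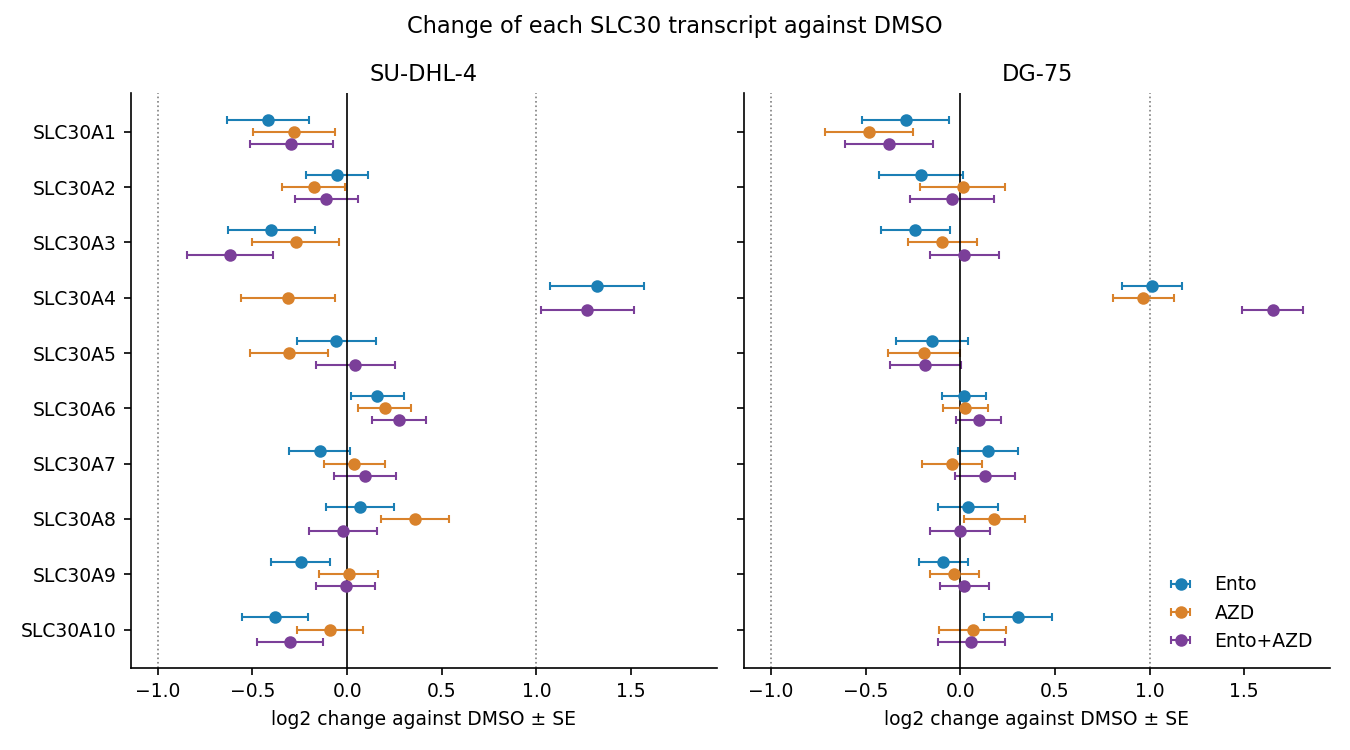
Fitted log2 change of each SLC30 member against DMSO (points) with its SE (bars), for Ento, AZD and Ento+AZD in SU-DHL-4 (left) and DG-75 (right). The dotted lines mark a change of 1 in either direction. SLC30A4 stands at 1.32, -0.31 and 1.27 in SU-DHL-4 and at 1.01, 0.967 and 1.65 in DG-75, and the other members lie between -0.62 and 0.357.

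The median change of the 9 in SU-DHL-4 was -0.14 with Ento, -0.092 with AZD and -0.020 with Ento+AZD, where all rows had -0.064, -0.078 and -0.083. In DG-75 the medians were -0.090, -0.031 and 0.021, and those of all rows -0.0043, -0.061 and -0.069. None of the 9 was called between the combination and a single agent, in the departure of the combination from additivity or in the difference between the lines. The shares of all rows called there were 0.0821% against Ento and 0.0274% against AZD in SU-DHL-4. For DG-75 they were 0.657% and 0%. They were 0% for either departure, and 0.00782%, 0% and 0.0352% for the line differences with Ento, AZD and Ento+AZD.

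**Figure D3:**
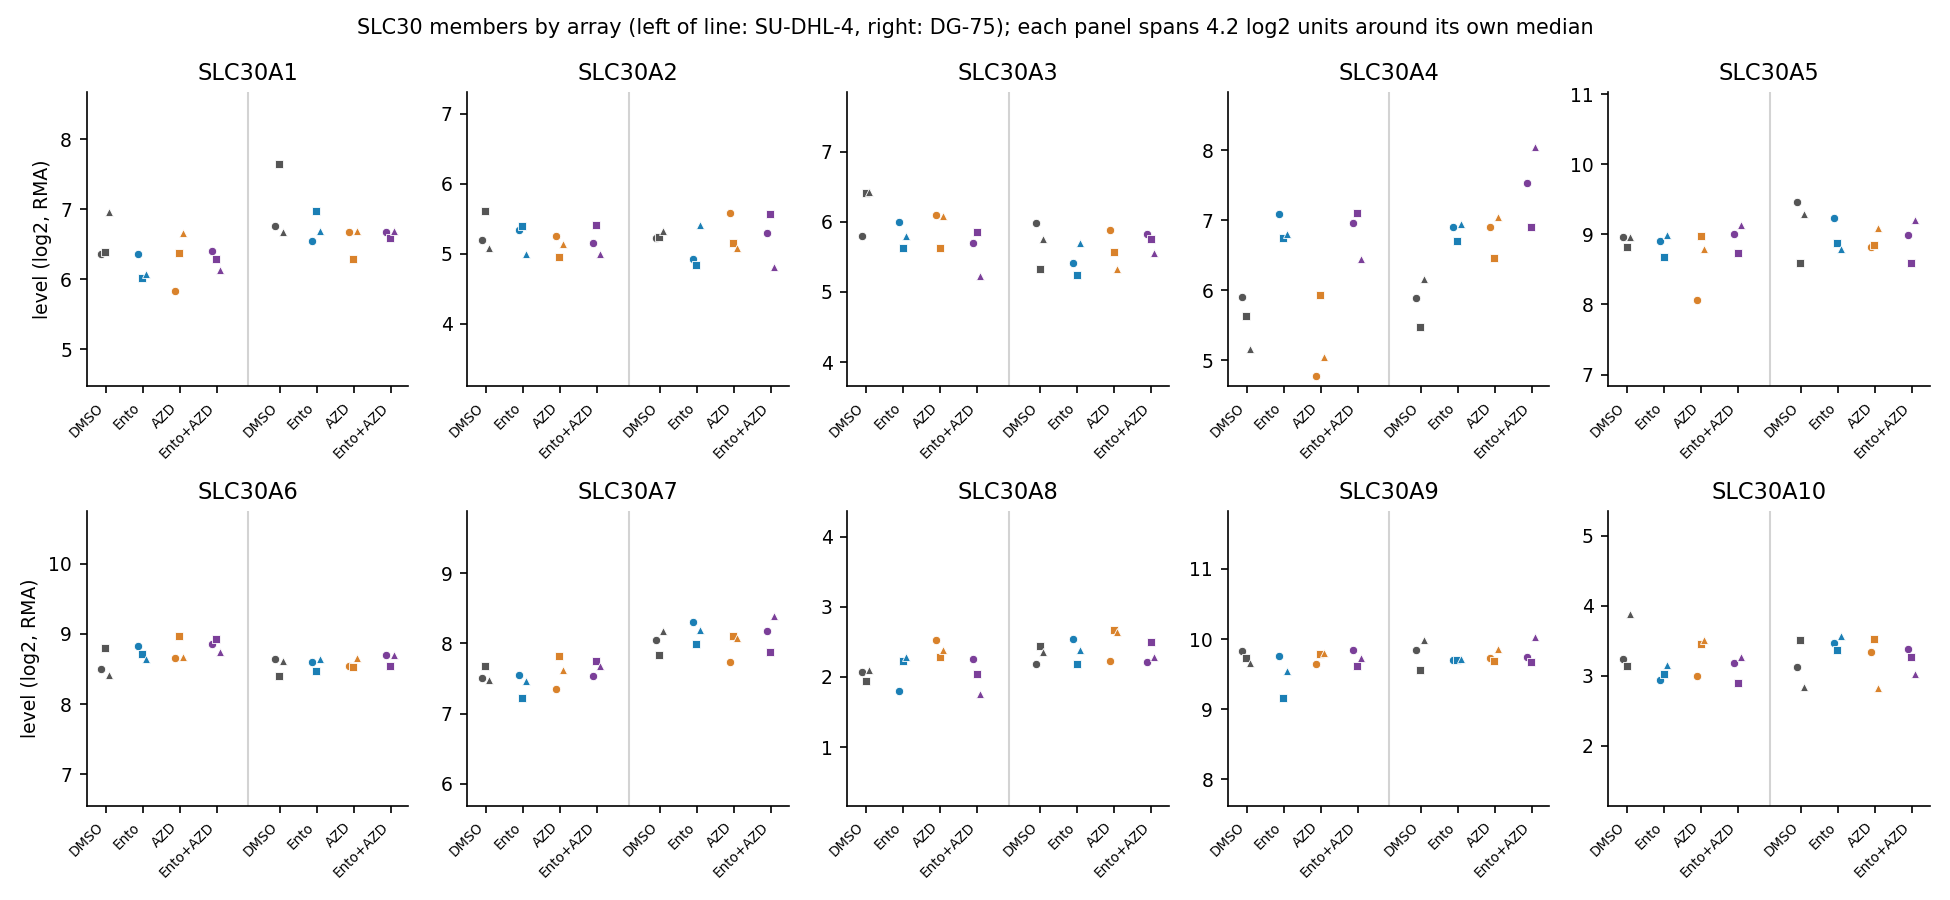
Level (log2) of each of the 10 SLC30 members on each array, 1 panel per gene, with SU-DHL-4 left of the grey line and DG-75 right of it. Colours give the treatment and shapes the replicate number, and every panel has the same height in log2 units around its own median. The panel of SLC30A4 spans 4.77 to 8.04, and the next widest, SLC30A1, spans 5.83 to 7.64.

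SLC30A1 encodes ZnT1, the zinc exporter of the plasma membrane. Its levels in SU-DHL-4 were 6.35, 6.39 and 6.97 under DMSO, 6.37, 6.01 and 6.08 under Ento, 5.83, 6.37 and 6.66 under AZD, and 6.40, 6.29 and 6.14 under Ento+AZD. In DG-75 they were 6.76, 7.64 and 6.68, then 6.55, 6.98 and 6.69, then 6.68, 6.29 and 6.68, and 6.68, 6.59 and 6.69 in the same order. DMSO replicate 3 of SU-DHL-4 and DMSO replicate 2 of DG-75 stood above the other DMSO arrays of their line. All 6 changes against DMSO were below 0, from -0.48 to -0.28, with a smallest limma adjusted p of 0.393, and the groups overlapped in each. Without DMSO replicate 3 the SU-DHL-4 changes were -0.25, -0.11 and -0.12 with Ento, AZD and Ento+AZD, and the AZD change was -0.033 without AZD replicate 1. Without DMSO replicate 2 the DG-75 changes were 0.034, -0.16 and -0.056, so that the change with Ento was no longer below 0.

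Among the members of secretory vesicles, SLC30A2 encodes ZnT2, which fills vesicles of secretory epithelia. Its changes against DMSO were -0.21 to 0.013 (smallest limma adjusted p = 0.743). SLC30A3 encodes ZnT3, which loads zinc into synaptic vesicles of neurons. In SU-DHL-4 its level was 5.80, 6.41 and 6.43 under DMSO and 5.70, 5.85 and 5.23 under Ento+AZD, and these groups overlapped. The change of -0.62 (SE 0.229) was the lowest of the 54 and did not pass the test (limma unadjusted p = 0.0189, adjusted p = 0.231). By replicate number the difference was uneven, at -0.095, -0.56 and -1.20. SLC30A8 encodes ZnT8 of insulin granules in pancreatic beta cells. Its level stayed between 1.75 and 2.67 on all 24 arrays. Its AZD arrays in SU-DHL-4 (2.28 to 2.52) lay above DMSO (1.94 to 2.09), which 2.82% of all rows did, with a change of 0.357 (SE 0.179, limma adjusted p = 0.478).

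Among the members of the early secretory pathway, SLC30A5 and SLC30A6 encode ZnT5 and ZnT6, which work as a pair, and SLC30A7 encodes ZnT7. They supply zinc to enzymes such as alkaline phosphatases. SLC30A5 had changes of -0.31 to 0.044 against DMSO, with a smallest limma adjusted p of 0.620. The lowest, with AZD in SU-DHL-4, was -0.0086 without AZD replicate 1. SLC30A6 had 6 changes above 0, from 0.020 to 0.274, with a smallest limma adjusted p of 0.424. SLC30A7 had changes of -0.14 to 0.145, with a smallest limma adjusted p of 0.760.

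SLC30A9 encodes ZnT9, a zinc transporter of mitochondria, and SLC30A10 encodes ZnT10, which exports manganese. SLC30A9 had changes of -0.25 to 0.021 (smallest limma adjusted p = 0.697). SLC30A10 had changes of -0.38 to 0.306 (smallest limma adjusted p = 0.491). Its Ento change differed between the lines by -0.69 (SE 0.251), which failed the adjustment (limma unadjusted p = 0.0137, adjusted p = 1).

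Under DMSO alone, 0 of the 9 members other than SLC30A4 were called between SU-DHL-4 and DG-75, where 7.20% of all rows were called. SLC30A7 was 7.51, 7.68 and 7.49 in SU-DHL-4 and 8.05, 7.83 and 8.18 in DG-75, and the groups did not overlap, with SU-DHL-4 wholly lower, as in 17.2% of all rows. The difference was -0.46 (SE 0.161), inside the fold minimum, with a limma adjusted p of 0.0503. SLC30A3 was higher in SU-DHL-4 by 0.523 (SE 0.214, limma adjusted p = 0.102), a difference that did not pass the test.

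The genes whose pattern over the 24 arrays was most like that of SLC30A4, after the mean of each line and replicate number was subtracted, were taken from 12608 genes at or above the median level. They were CASD1 (Pearson r = 0.903), CDK13 (0.899), RHOH (0.887), SATB1 (0.886) and SYNRG (0.881). CDK13 is a kinase of transcription elongation, RHOH a blood-cell GTPase and SATB1 a chromatin organiser of lymphocytes. The lowest were CD48 (-0.83), DRD4 (-0.80), CD99 (-0.79), TMEM14B (-0.78) and CYTOR (-0.78). With line means alone subtracted, 3 of the highest 5 and 2 of the lowest 5 stayed in these lists. The arrays share their treatments, so the correlations are descriptions. Among the other SLC30 members r ran from -0.42 for SLC30A3 to 0.479 for SLC30A6.

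**Figure D4:**
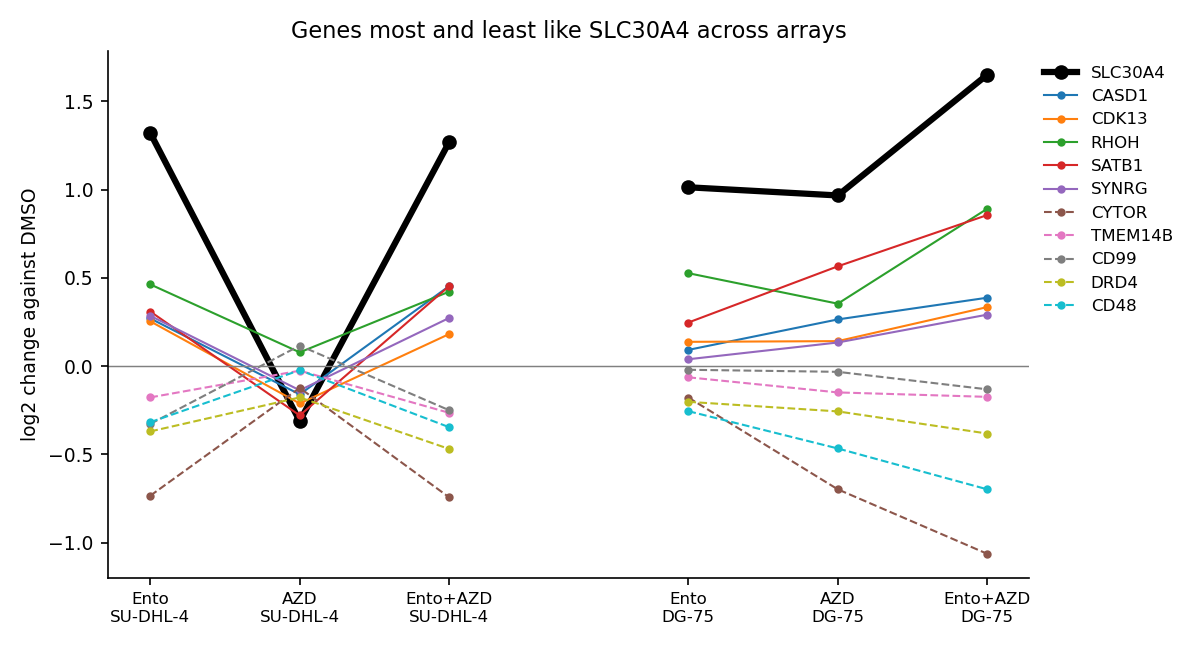
Fitted log2 change against DMSO in the 6 comparisons for SLC30A4 (thick black line), the 5 genes most like it over the arrays (solid) and the 5 least like it (dashed). SLC30A4 reaches 1.65 in DG-75 with Ento+AZD, where RHOH is at 0.892 and CYTOR at -1.06.

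Of the 14 SLC39 importers, 0 were called against DMSO in either line, where 0.00391% to 1.19% of all rows were called, depending on the comparison. SLC39A8 encodes ZIP8, which carries zinc and manganese into cells. Its level in DG-75 was 8.45, 8.34 and 8.38 under DMSO, 8.30, 8.46 and 7.91 under Ento, 6.96, 7.44 and 7.36 under AZD, and 7.42, 7.07 and 7.76 under Ento+AZD. The AZD and Ento+AZD arrays all lay below DMSO and Ento, and 14.6% and 14.0% of all rows lay wholly below DMSO in the same way. The change was -1.14 with AZD (SE 0.212, limma adjusted p = 0.0564), which passed the fold minimum but missed the p threshold. It was -0.98 with Ento+AZD (SE 0.212, limma adjusted p = 0.0397), which passed the p threshold, as 2.39% of all rows did, but missed the fold minimum. In SU-DHL-4 its changes were -0.34, -0.33 and -0.38, with limma adjusted p of 0.427 or more, and the AZD change was -0.073 without AZD replicate 1. Under DMSO, the SLC39A9 (ZIP9) level of SU-DHL-4 was below that of DG-75 by just under the fold minimum (-0.997, SE 0.131, limma adjusted p = 4.15e-06). SLC39A8 and SLC39A9 were singled out after their values were seen. SLC39A10, which encodes ZIP10, an importer needed by early and mature B cells, changed by -0.46 with Ento+AZD in SU-DHL-4 (limma adjusted p = 0.194) and by -0.38 with AZD in DG-75 (limma adjusted p = 0.247).

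Of the 12 metallothionein rows, 0 were called against DMSO in either line, against the same background. Many of these genes are near-identical copies whose probes can share signal. After the mean of each line and replicate number was subtracted, pairwise r over arrays ran from -0.079 to 0.971, with a median of 0.790. In SU-DHL-4 all 12 lay below DMSO with each treatment, with medians of -0.66 (Ento), -0.77 (AZD) and -0.83 (Ento+AZD), although 11 of 12 did so with AZD and Ento+AZD after quantile normalization or subtraction of array medians. At an unadjusted p under 0.05, 8, 8 and 9 of the 12 were lower, where 6.29%, 9.60% and 11.2% of all rows were. Without DMSO replicate 3 the medians were -0.20, -0.30 and -0.34. In DG-75 the medians were -0.21, -0.41 and -0.41, and without DMSO replicate 2 they were 0.151, -0.075 and -0.025.

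MT2A, a widely expressed metallothionein, was 8.87, 8.74 and 10.6 under DMSO in SU-DHL-4 and 8.10, 7.74 and 7.90 under Ento+AZD. The change of -1.50 (SE 0.390) did not pass the test (limma adjusted p = 0.0705) and was -0.79 without DMSO replicate 3. The MT1X change in the same comparison was -0.74 (limma adjusted p = 0.352), and -0.15 without DMSO replicate 3. MTF1 changed by 0.260 there (limma adjusted p = 0.496) and by 0.026 in DG-75 (limma adjusted p = 0.961). Among the 5 other genes of zinc handling, MTF1 included, 0 were called against DMSO, again where 0.00391% to 1.19% of all rows were.

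**Figure D5:**
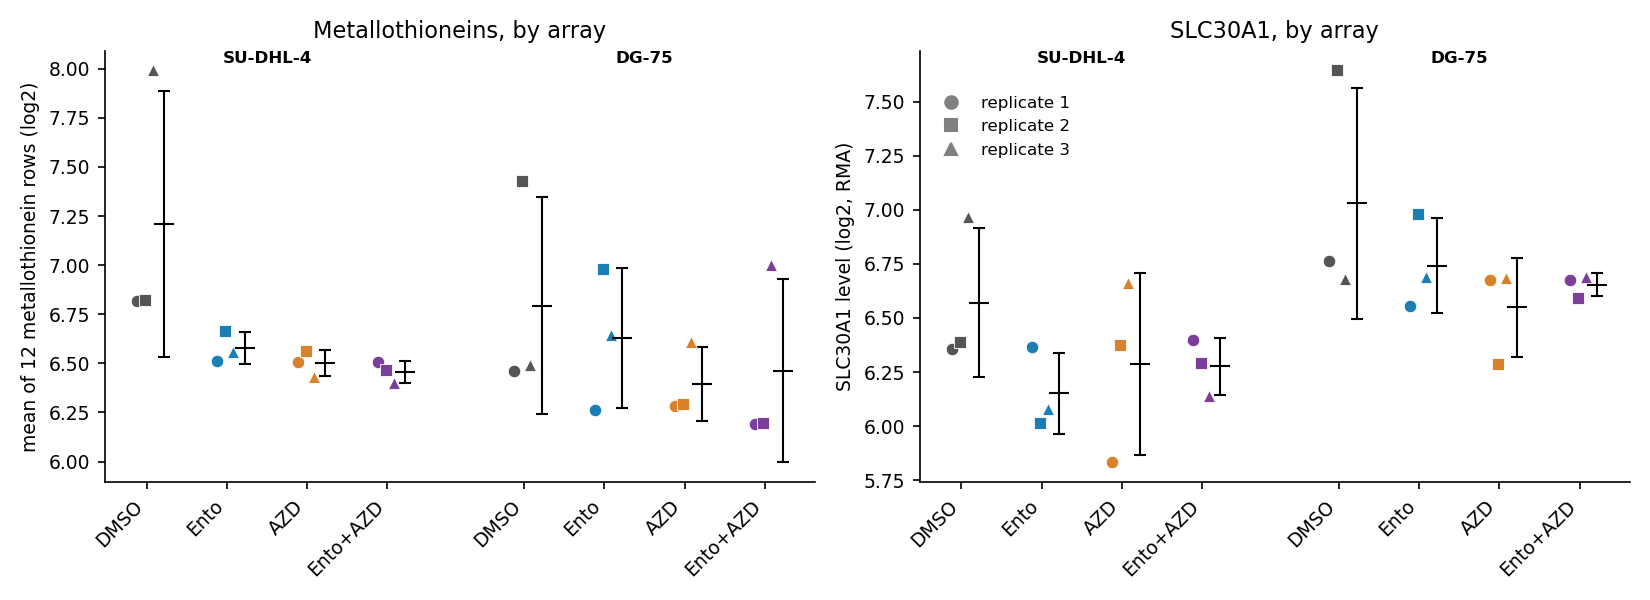
Mean of the 12 metallothionein rows (left) and SLC30A1 level (right), both log2, on each array by treatment and line, with the mean ± SD of 3 arrays beside each group. DMSO replicate 3 of SU-DHL-4 (metallothionein mean 7.99) and DMSO replicate 2 of DG-75 (7.43) are the highest arrays of their line in both panels.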

How the data were processed

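The authors normalized the arrays by RMA with limma, per the submitters' processing notes and the study's methods, and deposited log2 values per gene symbol for 24 arrays. The annotation version and genome build are not given in the sources used here. All per-sample columns were assigned by name (0 unused).

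With limma 3.58.1 (R 4.3.3; lmFit and eBayes) each line was fitted separately on all 25575 rows, with treatment and replicate number as terms. The study's model has a batch term whose meaning is not given in the sources used here, and the replicate number stood in for it. Line differences came from fits of all 24 arrays as 8 groups. The fit for the DMSO levels had no replicate term. The fit for the changes had the replicate number within each line as a term. P-values were adjusted by Benjamini-Hochberg over all rows. They measure the spread between these arrays, which may be partly technical, and the number of arrays limits the precision. Calculations were tested on simulated data.

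Members, lists and tests were chosen with earlier results of these data known. Named were all members, called genes of the zinc lists, MT2A, MT1X, MTF1, SLC39A10, the 5 genes most and 5 least like SLC30A4, and up to 3 chromosomal neighbours on each side. Alternatives covered the replicate block, scaling, low rows, prior variance, the fold minimum, duplicate rows and omission of arrays. Promoters and positions came from RefSeq tables of GRCh38.p14.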

Additional observations from a re-analysis of the deposited data

How the results depend on the processing

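Over 52 results, 882 values were recomputed with 1 choice changed at a time. Of these, 864 kept their count or moved by less than the spread between replicates, 18 moved further, and no change beyond the fold minimum turned its sign. Only 220 of the 864 were SLC30A4 estimates, and the rest were counts of called members, in short lists, that stayed at 0. Among the 864 were 8 SLC30A4 values, of 3 results near 0 in SU-DHL-4 (AZD against DMSO, Ento+AZD against Ento, and the departure from additivity), whose sign turned. The 9 members other than SLC30A4 stayed at 0 called under every alternative run. The SLC30A4 change with AZD in SU-DHL-4 ran from -0.62 to 0.0970 when arrays or replicate numbers were left out, the latter without replicate 1. SLC39 importers called with AZD in DG-75 went from 0 to 1 (SLC39A8) without the replicate block, in 1 fit of all arrays, with rows under the median left out, and with a prior variance that follows the level. Those called with Ento+AZD in DG-75 came to 1 (SLC39A8) with no fold minimum and to 0 to 1 with arrays left out, the 1 without Ento+AZD replicate 3. Those called between the lines under DMSO came to 1 after subtraction of array medians, 1 with no fold minimum, and 0 to 1 with arrays left out, each time SLC39A9 (without DMSO replicate 2 or 3 of SU-DHL-4, DMSO replicate 3 of DG-75, or replicate 3 of both lines). Metallothioneins called with Ento+AZD in SU-DHL-4 came to 1 (MT2A) with low rows left out and 1 (MT2A) with the prior variance following the level, and those between the lines to 0 to 2 with arrays left out (MT2A without DMSO replicate 2 of DG-75, MT1H and MT2A without replicate 2 of both lines). With no fold minimum, 4507 of all 25575 rows passed between the lines under DMSO, and 2.39% of all rows with Ento+AZD in DG-75. The shares of all rows called under the other alternatives are not given here. The cause of these moves was not tested. Same-numbered arrays deviated together at r over 0.1 in 12 of 18 SU-DHL-4 pairs and 7 of 18 DG-75 pairs. Among pairs with different numbers it was 1 of 36 (median r -0.069, against 0.150 for the same number) and 11 of 36. In SU-DHL-4 same-numbered arrays thus deviated together more often than arrays of different numbers, though not in every pair. In DG-75 the median r was 0.040 for the same number and -0.014 for different numbers, so the numbers are not shown to pair the arrays there. In both lines the replicate number was a term of the fit in place of the undefined batch of the study's model. Without the replicate block the SLC30A4 changes were the same (1.32 with Ento in SU-DHL-4), and no call changed other than that of SLC39A8 above. No detection value per row was used here, so low levels such as that of SLC30A8 cannot be split into expressed and not expressed.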

Other observations

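The mean of the 12 metallothionein rows under DMSO was 6.82, 6.82 and 7.99 in SU-DHL-4 and 6.46, 7.43 and 6.49 in DG-75. SLC30A1 was highest on the same DMSO array in each line. After seeing these values, the deviations of each SLC30 member from its group mean were correlated with those of the metallothionein mean over the 24 arrays. For SLC30A1 Pearson r was 0.672 and Spearman rho was 0.620, given as a description with no p because the same arrays prompted the comparison. Within SU-DHL-4 r was 0.531 and within DG-75 0.786, and without the 2 arrays farthest from the median, the DMSO arrays named above, r was 0.458. For this and the later values without these 2 arrays, the group means still included them, so the remaining DMSO arrays kept an offset. How far the relation rests on the 2 arrays is therefore not settled by these values. The members other than SLC30A1 had r from -0.44 to 0.329 over all arrays, and SLC30A4 had -0.13. For SLC30A4 r was -0.37 within SU-DHL-4, 0.087 within DG-75 and 0.182 without the same 2 arrays, so its sign was not stable. Within a line, r was 0.716 for SLC30A10 in SU-DHL-4 and -0.73 for SLC30A3 in DG-75. Without the same 2 arrays, r over both lines was -0.10 for SLC30A10, against 0.329 with them, and -0.29 for SLC30A3.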
